A study of Sus scrofa with 92 samples.

Results

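The 9 ovary libraries of this survey of pig tissues were compared with the 74 libraries of the 8 other single tissues. The ovaries were chosen by their tissue label, and they are 9 of 92 libraries in all. Their labels put 1 library in each of 9 breeds, namely Berkshire, Hampshire, Landrace, Large White, Piétrain, Bamei, Jinhua, Meishan and Rongchang. All animals were 60 days old, an age before puberty in pigs, and no treatment is named for any group. The other tissues were heart, liver, kidney and subcutaneous adipose with 9 libraries each, spleen, psoas major and longissimus dorsi with 10 each, and lung with 8. Psoas major and longissimus dorsi are both skeletal muscles. Tibetan wild boar, the tenth breed, supplied spleen and both muscles here but no ovary. A further 9 libraries of mixed tissues were left out of the comparisons. The labels do not say whether the tissues of a breed came from the same animal or from pooled animals. The p-values measure only the spread between libraries that is left after tissue and breed averages are taken out.

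The ovary of a young animal holds oocytes arrested in meiosis, each wrapped in granulosa cells to form a follicle. The oocyte makes the zona pellucida, a coat of glycoproteins through which sperm must pass, and stores messenger RNAs and proteins that the embryo will use before its own genome is read. Granulosa cells nurse the oocyte and secrete inhibin, theca cells around growing follicles make androgens, and a stroma and a surface epithelium enclose them.

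The deposited values were FPKM, fragments scaled to gene length and sequencing depth. They were scaled between libraries by median ratios, and all levels below are scaled FPKM. Differences are on the log2(scaled FPKM + 1) scale, which understates the change of low genes. Each gene has 1 estimate of its spread, shared by all 83 single-tissue libraries. For genes near 0 outside ovary, the SE and p-value can understate the spread among the ovaries, which is given below. The labelled tissue was checked against 4 genes. DPPA5, an RNA-binding protein of germ cells and early embryos, ran from 156 to 727 (median 490.3) in the ovaries, against 0 to 0.829 in the other tissues. ZP3, a zona glycoprotein, ran from 99.2 to 529 (median 342) in the ovaries, against 0 to 1.42 elsewhere. ZAR1, which binds stored oocyte RNAs, ran from 25.7 to 143 (median 115) in the ovaries, against 0 to 0.0957 elsewhere. For these 3 genes no library of another tissue reached the lowest ovary. The log2 difference from the mean of the other tissues was 8.65 for DPPA5 (SE 0.11, limma adjusted p = 2.6e-65), 8.09 for ZP3 (SE 0.09, limma adjusted p = 5.5e-69) and 6.65 for ZAR1 (SE 0.09, limma adjusted p = 1.2e-64). INHA, the inhibin alpha subunit of granulosa cells, ran from 31.2 in the Meishan ovary to 306 in the Hampshire ovary, with a median of 174. Outside ovary it had a median of 0.178 and a highest value of 44.9 in the Bamei heart, and 2 of the 74 other libraries lay above the Meishan ovary. Its log2 difference was 6.38 (SE 0.20, limma adjusted p = 9.9e-42).

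The Meishan ovary stood apart from the other ovaries, and the main counts are given with and without it. Its median Spearman correlation with the other ovaries over genes was 0.911, against 0.946 to 0.962 for the other 8. Before scaling, its total was 1221010 FPKM, against 586167 to 744497 in the other ovaries, and 48.6% of it lay in a single gene. Between 14187 and 14561 genes reached 1 FPKM in an ovary, also before scaling. Ratios between low values put the relative depth of the ovaries at 0.725 to 1.10 of the median library, with a median of 0.846. For the other tissues it was 0.739 to 1.38, with a median of 0.998. The estimate is rough, since in the median pair of libraries only 9.71% of these ratios lay within 0.05 log2 of the most common one. Absolute depth is not known. Some values of 0 may be failed estimates, since HDAC1, a histone deacetylase that cells in general use, was listed at 0 in all 9 ovaries and in 73 of the 74 other libraries. Most markers of other organs were lower in ovary than the mean of the other tissues. Of 6 tested heart markers, 1 was higher than that mean by a log2 difference over 1. Of 9 tested kidney markers 2 were higher, 1 of them by over 1. Summed over its markers, skeletal muscle reached 8.02 to 13.5 in the ovaries, against 28048 to 91249 in psoas major. The liver markers summed to 39.7 to 74.7 in the ovaries, against 68612 to 139455 in liver.

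Of 17207 genes tested, 926 were higher in ovary than in each of the 8 other tissues (5.38%), and 73 were lower than in each (0.424%). These calls needed a log2 difference over 1 against every tissue and an adjusted p below 0.05 (limma with breed as block, Benjamini-Hochberg). Without the Meishan ovary the counts were 992 and 79, and 918 of the 926 genes were called again. Among the 926, the lowest ovary lay above all 74 other libraries for 701 genes, which was the case for 5.78% of all genes tested. Without the Meishan ovary this held for 825 of them, and for 7.94% of all genes. A median below 1 FPKM in every other tissue was seen for 471 of them. The median ovary level was 10 or more for 418 and 100 or more for 31. Together the 926 genes held 1.58% of all scaled FPKM in the Meishan ovary and 4.66% to 7.01% in the other 8, against at most 0.634% in any library of another tissue. In the Meishan ovary 1 gene alone held 48.6% of all FPKM. With the most abundant gene of each library left out of its total, a choice made after seeing the data, the share was 3.08% in the Meishan ovary and 5.22% to 7.62% in the other 8, against at most 0.769% in another tissue. The 926 were chosen as higher in ovary in these same libraries, so their larger share and scarce overlap follow largely from that choice. Spleen was the tissue nearest to ovary for 198 of the genes, kidney for 164 and lung for 160.

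Against the mean of the 8 other tissues, 7080 genes were higher in ovary (41.1%) and 7027 were lower (40.8%), so 50.2% of the calls were higher. With FPKM as deposited, 11395 were higher and 3369 lower, or 77.2% higher, and the median difference over all genes moved to 0.56, against -0.02 after scaling. Past a log2 difference of 1, 2536 genes were higher (14.7%) and 2007 lower (11.7%). Pair by pair, ovary exceeded psoas major in 3558 genes (20.7%), liver in 3520 (20.5%), spleen in 3410 (19.8%), longissimus dorsi in 3347 (19.5%) and heart in 3177 (18.5%). It exceeded subcutaneous adipose in 2793 (16.2%), kidney in 2695 (15.7%) and lung in 2694 (15.7%). Ovary was below liver in 3007 genes (17.5%), longissimus dorsi in 2468 (14.3%), psoas major in 2467 (14.3%), lung in 2322 (13.5%) and kidney in 2276 (13.2%). It was below spleen in 2231 (13%), heart in 2230 (13%) and subcutaneous adipose in 1973 (11.5%). Over all genes tested the median Spearman correlation with the ovaries was highest for subcutaneous adipose at 0.739 and lowest for liver at 0.634. Library by library, the Meishan ovary was closest to the Meishan lung, at 0.791. The other ovaries were each closest to a subcutaneous adipose library, at 0.698 to 0.766. The 8 pairwise contrasts share the ovary libraries. The gene lists below are described by their counts and medians, to be read beside these shares over all genes and the median of -0.02.

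Of the 24 named genes with the greatest distance to their nearest tissue, 16 belonged to lists of oocyte and germ cell genes. All 42 gene lists together matched 585 of their symbols, among 11803 symbols in the data. The lists were written with earlier results of these data known, so this count is not independent of the data. Of 5 tested genes of the zona and egg surface, 4 were higher than in each other tissue and all 5 were higher than the mean, with a median log2 difference of 2.65. ZP3 exceeded the nearest tissue, spleen, by 7.43 on the log2 scale. ZP4, another zona glycoprotein, ran from 6.57 in the Large White ovary to 112 in the Rongchang ovary with a median of 79.0, against at most 0.0968 elsewhere. Its log2 difference from the mean was 5.86 (SE 0.14, limma adjusted p = 5.8e-49). ZP2, which sperm bind in mice, stood at a lower level, with 0.802 to 15.9 (median 6.72) in the ovaries against at most 0.0762 elsewhere. No ovary overlapped the other tissues for these 3 genes. ASTL, a protease of egg cortical granules, ran from 0.152 to 7.69 (median 2.09) in the ovaries, against 0 to 1.11 elsewhere, and 7 other libraries lay above the lowest ovary. CD9, an egg membrane tetraspanin that many cells carry, differed from the mean by 0.28 (SE 0.13, limma adjusted p = 0.044) and lost that call without the Meishan ovary and under other alternatives.

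**Figure D1:**
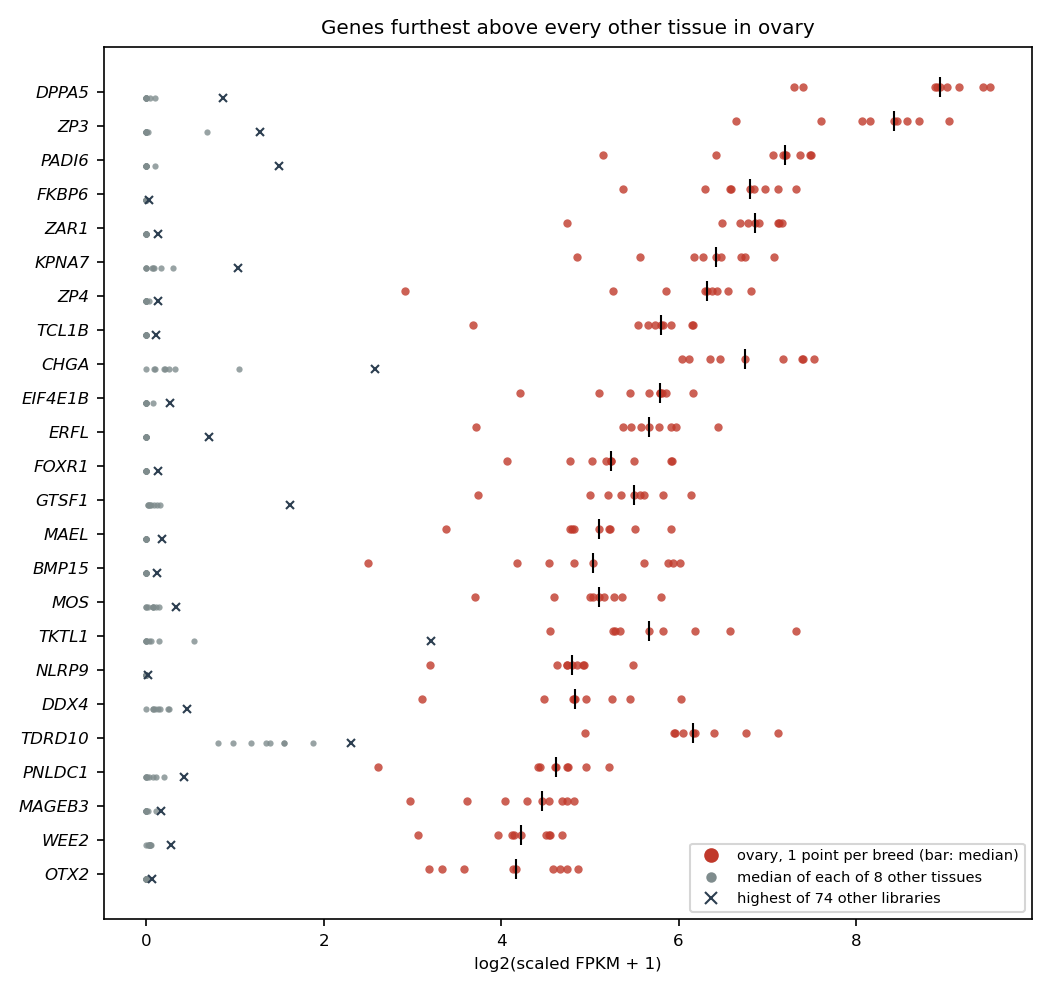
Level on the log2(scaled FPKM + 1) axis of the 24 named genes with the largest distance to their nearest tissue. Red points above each line are the 9 ovaries with a bar at their median, grey points below it are the medians of the 8 other tissues, and crosses are the highest of the 74 other libraries. For all 24 genes the lowest ovary lies to the right of the cross.

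All 4 tested growth factor genes of the oocyte were higher than the mean and 2 were higher than in each tissue. BMP15, which oocytes send to granulosa cells, ran from 4.64 in the Large White ovary to 63.8 in the Jinhua ovary, against at most 0.0919 elsewhere. BMP15 differed from the mean by 4.94 on the log2 scale (SE 0.13, limma adjusted p = 8.1e-46). GDF9, its partner, ran from 23.7 to 83.9 (median 65.3) in the ovaries, against 2.45 to 22.8 (median 8.32) elsewhere. GDF9 was read in every tissue, no library overlapped the ovaries, and its log2 difference from the nearest tissue, psoas major, was 1.75. BMP6 and KIT, the receptor for KIT ligand, were higher than the mean by 0.86 and 1.03 but overlapped other tissues.

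Transcription factors and regulators of the oocyte were called in 8 of 11 against each tissue, with a median log2 difference of 2.61. FIGLA, which switches on zona genes in mice, ran from 1.48 to 15.1 (median 6.93) in the ovaries, against 0 to 0.0731 elsewhere. The log2 difference of FIGLA was 3.02 (SE 0.09, limma adjusted p = 8.9e-43). NOBOX, a homeobox factor needed for early follicles in mice, ran from 1.41 to 8.0 (median 5.68) in the ovaries, against 0 to 0.0492 elsewhere. OTX2, a homeobox factor, ran from 8.10 to 28.3 (median 17.0) in the ovaries, against 0 to 0.0468 elsewhere. LHX8, SOHLH2, TBPL2 and NR6A1 were also higher than in each tissue, with ovary medians of 16.2, 9.03, 4.28 and 5.56. GSC and PRDM1 were lower than the mean, and their ovary medians were 0.0633 and 0.332. LIN28A and TFAP2C were too low to be tested, with highest ovary values of 0.152 and 0.157.

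Genes of the egg cytoplasm and of maternal supply were called against each tissue in 11 of 15, with a median log2 difference of 2.73. PADI6, a component of the cytoplasmic lattices of the egg, ran from 34.6 to 179 (median 146) in the ovaries, against at most 1.83 elsewhere. PADI6 differed from the mean by 6.90 (SE 0.11, limma adjusted p = 1.9e-60). KPNA7, an importin of oocytes, ran from 28.0 to 134 (median 84.8) in the ovaries, against at most 1.04. NLRP9, of a gene family that works in mouse oocytes and embryos, ran from 8.17 to 43.8 (median 26.9) in the ovaries, against at most 0.0115. OOEP, part of the subcortical maternal complex, had an ovary median of 16.1 and BTG4, which clears maternal RNA in mice, one of 7.04, and the 74 other libraries lay below the ovaries for both. HSF1, DNMT1 and UHRF1 were higher than the mean by 0.70, 1.16 and 0.48 and overlapped other tissues. CTCFL was lower than the mean by 0.20, with an ovary median of 0.00936.

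Genes that hold and release stored RNA were called against each tissue in 7 of 13. EIF4E1B, an oocyte form of the cap-binding protein, ran from 17.5 to 70.4 (median 54.5) in the ovaries, against at most 0.206 elsewhere. CPEB1, which controls poly(A) tails of stored RNAs, ran from 3.16 to 14.9 (median 11.2) in the ovaries, against at most 0.463. The log2 difference of CPEB1 was 3.35 (SE 0.07, limma adjusted p = 1.9e-52). EIF4ENIF1, a repressor that binds the cap-binding protein, ran from 20.1 to 62.1 (median 42.7) in the ovaries, against 5.10 to 9.56 (median 7.27) elsewhere. None of the 3 overlapped the other tissues. CNOT7 and TUT4, which shorten and tail RNAs in cells of all kinds, were lower than the mean by 0.19 and 0.40. Both signs turned round with FPKM as deposited, and that of CNOT7 also with quantile normalization.

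In meiotic arrest and maturation, 2 of 12 genes were higher than in each tissue and 9 were higher than the mean. MOS, the kinase that holds the mature egg in meiosis, ran from 12 to 54.8 (median 33.2) in the ovaries, against at most 0.263 elsewhere. MOS differed from the mean by 4.92 (SE 0.07, limma adjusted p = 8.8e-62). WEE2, an oocyte kinase that inhibits CDK1, ran from 7.33 to 24.8 (median 17.7) in the ovaries, against at most 0.214. CCNB3, a cyclin, and MASTL, a kinase of mitotic and meiotic entry, exceeded the mean by 1.35 and 1.73, with differences from spleen of 0.27 and 0.99. GPR3 and GPR12, receptors that keep cyclic AMP high in rodent oocytes, were too low to be tested, with highest ovary values of 0.171 and 0.404.

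The piRNA pathway, in which PIWI proteins and small RNAs silence transposons in germ cells, was called against each tissue in 15 of 20 genes, with 19 higher than the mean. FKBP6, a co-chaperone for loading piRNAs, ran from 40.4 to 159 (median 111) in the ovaries, against at most 0.0258. DDX4, the germ cell helicase, ran from 7.61 to 64.0 (median 27.5) in the ovaries, against at most 0.371. The log2 difference of DDX4 was 4.72 (SE 0.10, limma adjusted p = 3.7e-51). GTSF1 and MAEL, cofactors of PIWI proteins, had ovary medians of 44.0 and 33.4, and no other library reached an ovary. PNLDC1, which trims piRNA ends and was not in the list, ran from 5.13 to 36.2 (median 23.5) in the ovaries, against at most 0.342. The PIWI genes themselves were low. PIWIL3, absent from mice, had an ovary median of 2.41, PIWIL2 of 0.739 and PIWIL4 of 0.144. PIWIL3 was higher than in each tissue, PIWIL2 passed only against the mean, and PIWIL4 passed neither (log2 difference -0.02, SE 0.04).

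Of the meiotic chromosome genes 6 of 17 were higher than in each tissue, and 10 of the 27 matched genes were too low to be tested. STAG3, a meiotic cohesin, ran from 1.63 to 11.5 (median 6.35) in the ovaries, against at most 0.325. SYCE1, of the synaptonemal complex, ran from 1.28 to 6.92 (median 4.64) in the ovaries, against at most 0.359. Of the genes too low to be tested, 3 examples had highest ovary values of 0.182 for the recombinase DMC1, 0.332 for STRA8, which starts meiosis in mice, and 0.695 for HORMAD1. MSH4 was lower than the mean by 1.5, with at most 9.85 in the ovaries against at least 11.5 elsewhere.

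The other 8 of those 24 genes were in none of these lists. TCL1B, a relative of the TCL1 kinase coactivator, ran from 11.8 to 70.8 (median 54.9) in the ovaries, against at most 0.0774. FOXR1, a forkhead factor, ran from 15.8 to 59.8 (median 36.7) in the ovaries, against at most 0.0999. TKTL1, a transketolase relative, ran from 22.5 to 159 (median 49.8) in the ovaries, against at most 8.25. ERFL, MAGEB3 and TDRD10 had ovary medians of 49.9, 21.0 and 70.8. CHGA, the granin of hormone and neurotransmitter granules, ran from 64.8 in the Berkshire ovary to 183 in the Hampshire ovary, against at most 4.98 elsewhere. Among further genes with the greatest difference from the mean was RARRES1, a retinoid-responsive membrane protein, with 256 to 574 (median 412) in the ovaries against 0.431 to 60.1 (median 4.70) elsewhere. TMPRSS15, the protease that activates trypsinogen in the gut, ran from 8.22 to 64.2 (median 37.3) in the ovaries, against at most 3.78. WFIKKN2, which binds myostatin and GDF11, ran from 35.3 to 90.9 (median 67.6) in the ovaries, against at most 26.1 in the Jinhua heart.

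Of the granulosa cell genes, 8 of 21 were higher than in each tissue and 17 were higher than the mean, with a median log2 difference of 1.37. FSHR, the receptor for follicle-stimulating hormone, ran from 1.37 to 8.40 (median 3.65) in the ovaries, against at most 0.0394. Its log2 difference was 2.17 (SE 0.06, limma adjusted p = 9.7e-43). AMHR2, the receptor for anti-Müllerian hormone, ran from 3.26 to 9.93 (median 7.02) in the ovaries, against at most 0.404. ESR2, the oestrogen receptor of granulosa cells, ran from 1.16 to 3.14 (median 2.65) in the ovaries, against at most 0.173. For these receptors the ovaries and the other tissues did not overlap. NR0B1, a nuclear receptor of gonad and adrenal, had an ovary median of 9.30 and SERPINE2, a protease inhibitor, of 57.9. GATA4 and GATA6, factors that heart also uses, had ovary medians of 29.2 and 27.0 and overlapped heart, where the medians were 26.8 and 58.1. DPEP1, a dipeptidase, had an ovary median of 121, and only the 9 kidney libraries, with a median of 212, lay above its lowest ovary. NR5A2, a nuclear receptor of liver and granulosa cells, had an ovary median of 0.152 and was lower than the mean by 0.53.

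Theca and steroid genes were called in 2 of 16 against each tissue, with 9 higher and 3 lower than the mean and a median of 0.43. With FPKM as deposited 15 were higher and 1 lower, with a median of 0.94. INSL3, a peptide hormone of theca cells, ran from 1.20 in the Meishan ovary to 58.0 in the Hampshire ovary with a median of 11.7, against at most 0.129 elsewhere. INSL3 differed from the mean by 3.68 (SE 0.17, limma adjusted p = 8.3e-31), and no other library reached an ovary. NR5A1, the steroidogenic factor, ran from 7.51 to 22.1 (median 12.6) in the ovaries, against at most 6.24 in spleen. CYP11A1, which begins steroid synthesis, ran from 0.368 to 2.86 (median 0.862) in the ovaries and CYP17A1, which makes androgens, from 0 to 2.77, with up to 1.98 and 4.26 elsewhere. LHCGR, the receptor for luteinizing hormone, did not exceed 0.513 in an ovary and was not tested. Cholesterol synthesis was higher than the mean in 8 of 15 genes and lower in 2, or 14 and 0 with FPKM as deposited, and the list's median was 1.94 below liver.

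Among gonadal stroma genes, 5 of 20 were higher than in each tissue and 17 were higher than the mean. WT1, a factor needed to form the gonad, ran from 43.2 to 103 (median 52.5) in the ovaries, against at most 16.3 in spleen. The log2 difference of WT1 was 4.60 (SE 0.06, limma adjusted p = 1.2e-63). LHX9, another gonad factor, ran from 7.73 to 17.4 (median 12.8) in the ovaries, against at most 0.525. RSPO2, a Wnt agonist that oocytes make in mice, ran from 12.5 to 51.8 (median 26.0) in the ovaries, against at most 7.57 in lung. DCN, the matrix proteoglycan decorin, reached a median of 799.6 in the ovaries, second to subcutaneous adipose at 1054. LUM, the related lumican, was lower than the mean by 1.62.

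In the Wnt and R-spondin pathway 4 of 31 genes were higher than in each tissue, namely WNT2B, WNT3, RSPO2 and FZD2, and 20 were higher than the mean against 5 lower. WNT3 ran from 2.30 to 7.33 (median 6.04) in the ovaries, against at most 0.519, and FZD2, a receptor, from 21.7 to 40.3 (median 33.2) in the ovaries, against at most 21.1. In the Notch and hedgehog pathway SMO, the hedgehog transducer, and DHH, a ligand of granulosa cells, were called, and 15 of 24 genes were higher than the mean. SMO ran from 17.0 to 27.6 (median 21.6) in the ovaries, against 1.06 to 14.2 (median 6.36) elsewhere. In the TGF-beta, BMP and activin pathway only BMPR1B, the receptor for BMP15 signals, was called of 31 genes, with 10.3 to 25.4 (median 13.8) in the ovaries against at most 11.7, and 1 other library lay above its lowest ovary. There 9 genes were higher and 12 lower than the mean, which turned to 21 higher and 5 lower with FPKM as deposited. Among steroid receptors ESR1, ESR2 and PGR were called, and ESR1 ran from 3.44 to 15.3 (median 7.09) in the ovaries, against at most 2.29. ESR1 differed from the mean by 2.55 (SE 0.13, limma adjusted p = 1.3e-28). NR3C1, the glucocorticoid receptor, and its partner FKBP5 were lower than the mean by 1.08 and 1.5.

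**Figure D2:**
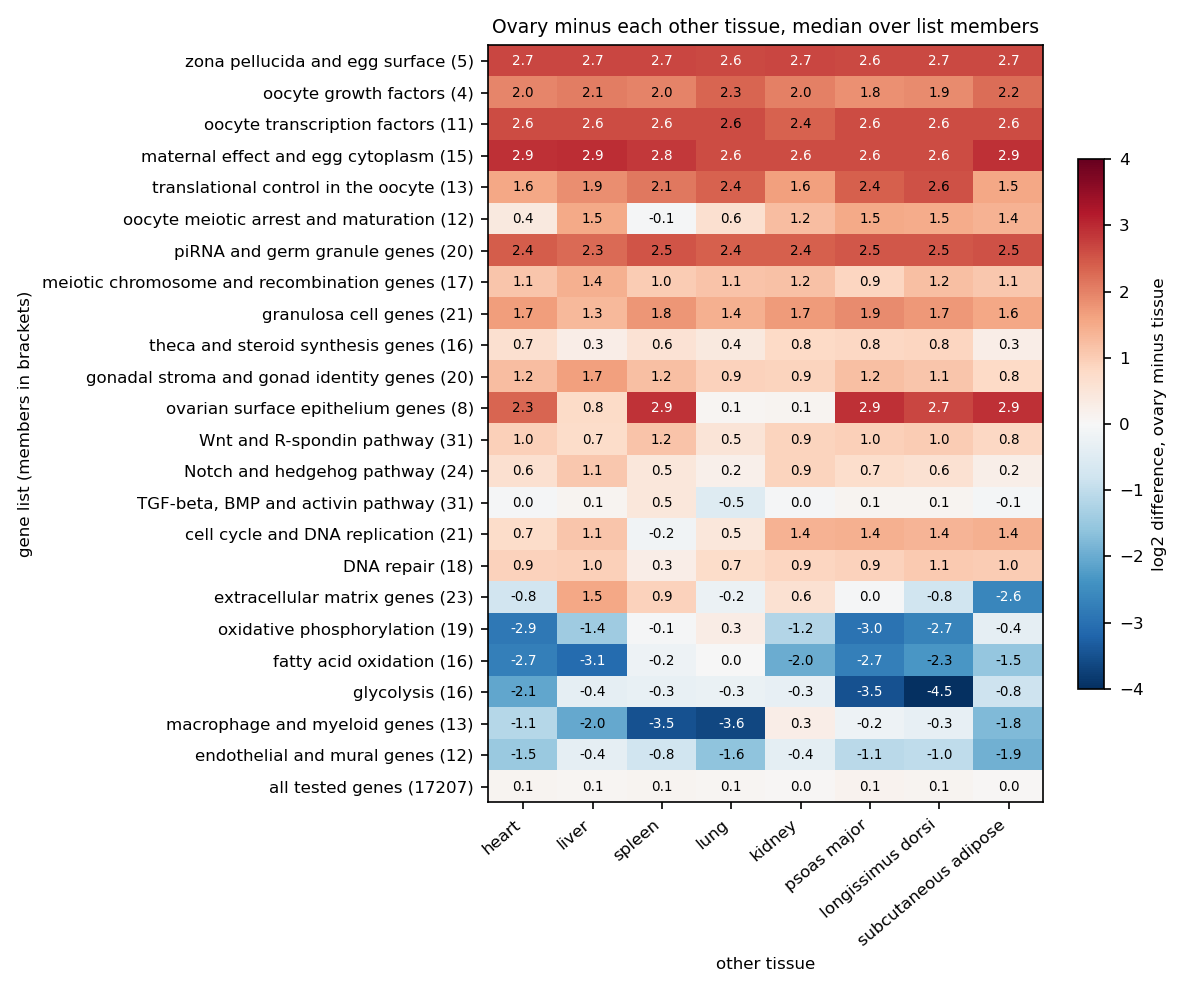
Median over the tested members of each gene list of the log2 difference, ovary minus tissue, for each of the 8 other tissues. Red is higher in ovary and blue is lower. Oocyte lists are red in all columns except meiotic arrest and maturation against spleen, the surface epithelium list is near 0 against lung and kidney, and within their lines the oxidative phosphorylation and glycolysis lists are darkest against heart and both muscles.

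Genes of the cell cycle were higher than the mean in 17 of 21 and lower in none, and 3 were higher than in each tissue, namely CCNB2, NDC80 and CDT1. CDT1, which licenses replication origins, ran from 8.10 to 25.1 (median 18.3) in the ovaries, against 0.0468 to 5.83 (median 1.35) elsewhere. The list's median difference, ovary minus spleen, was -0.15. TOP2A, the topoisomerase of dividing cells, did not pass against the mean (log2 difference -0.25, SE 0.15). DNA repair genes were higher than the mean in 16 of 18, led by FANCD2 at 2.58 and FANCI at 2.21, both of the Fanconi pathway, and ATM and ATR were lower by 0.70 and 0.37.

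The metabolic lists were mostly lower in ovary. All 19 tested genes of oxidative phosphorylation were below the mean of the other tissues, with a median of -1.47, and 18 of them with FPKM as deposited. SDHB, of the succinate dehydrogenase complex, ran from 39.5 to 55.1 (median 45.4) in the ovaries, against 31.5 to 476 (median 161) elsewhere. SDHB differed from the mean by -1.47 (SE 0.06, limma adjusted p = 1.1e-32) and overlapped other tissues. The list's median stood 2.96 below psoas major and 2.87 below heart but 0.31 above lung. All 16 genes of fatty acid oxidation were lower, with a median of -1.90, led by ACSL1, which activates fatty acids, at -4.31. The list's median stood 3.09 below liver and 2.74 below heart, but 0.21 below spleen and 0.0049 below lung, and with FPKM as deposited 15 of the 16 were lower. Of 16 glycolysis genes 14 were lower, or 10 with FPKM as deposited, and ENO1 and ALDOC were higher by 1.3 and 1.55. The glycolysis median stood 4.46 below longissimus dorsi, 3.47 below psoas major and 2.08 below heart. It stood 0.83 below subcutaneous adipose, and 0.25 to 0.36 below liver, spleen, lung and kidney. The genes furthest below the mean were those of muscle fibres and heart, MYL3, TNNC1, MYL1, MYL11, PGAM2 and TCAP, with differences of -4.81 to -4.49. None of the 6 was lower than in each tissue.

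Genes lower in ovary than in each tissue were fewer. The highest ovary lay below all other libraries for 48 of the 73 genes lower than in each tissue, against 1.47% of all genes tested. The 73 were chosen as lower in these same libraries, so scarce overlap follows largely from that choice. ITGA1, a collagen receptor subunit, ran from 2.32 to 4.82 (median 3.99) in the ovaries, against 12.8 to 77.9 (median 34.5) elsewhere. Its log2 difference from the mean was -3.06 (SE 0.08, limma adjusted p = 6e-47). ADGRF5, an adhesion receptor of endothelium and lung, ran from 1.70 to 2.76 (median 1.98) in the ovaries, against 7.53 to 76.7 (median 38.5) elsewhere. TSPAN12, which helps a Frizzled receptor in endothelial cells, ran from 0.898 to 1.42 (median 1.25) in the ovaries, against 4.25 to 603 (median 17.6) elsewhere. None of these overlapped. PTPRB, the endothelial phosphatase, ran from 1.28 to 1.89 (median 1.47) in the ovaries, against 4.27 to 22.8 (median 10.3) elsewhere, and NOSTRIN, which traffics nitric oxide synthase, from 0.546 to 3.03 (median 1.39) in the ovaries, against 3.47 to 18.5 (median 7.39) elsewhere. RGCC, RNF125, CPEB4, TNFRSF21, PDK4, ACSL4 and SLCO2A1 were also named, with differences from their nearest tissue of -1.86 to -1.48. PDK4, a brake on glucose oxidation, overlapped, with 4.31 to 20.1 (median 13) in the ovaries against 9.56 to 1784 (median 140.5) elsewhere.

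The list of endothelial and mural genes was lower than the mean in 9 of 12, with a median of -1.22. PECAM1, an adhesion molecule between endothelial cells, ran from 9.48 to 17.2 (median 13) in the ovaries, against 28.4 to 266 (median 80.3) elsewhere, and it was the only member lower than in each tissue. PECAM1 differed from the mean by -2.34 (SE 0.08, limma adjusted p = 4.7e-38). TEK, the angiopoietin receptor, was lower by 1.85, and NOTCH3, of mural cells, was higher by 0.61. In bulk tissue, fewer cells of a type and less RNA of each cell cannot be told apart. Macrophage genes were lower in 12 of 13 with a median of -1.68, and T and B cell genes in 9 of 12 with a median of -0.81. These medians were widest against spleen and lung, and against kidney they were 0.28 and 0.08. Extracellular matrix genes were higher in 9 and lower in 12 of 23, with a median of -0.37 that turned to 0.31 with FPKM as deposited, and they stood 2.61 below subcutaneous adipose.

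The spread among the ovaries is described without a test. The median SD over the 9 ovaries was 0.472 on the log2 scale for the 926 genes, against 0.234 for all genes tested. Without the Meishan ovary these were 0.341 and 0.203. In the 8 other tissues the same 926 genes, most of them near 0, had median SDs of 0.122 to 0.165. The Meishan ovary was the lowest of the 9 for 642 of the 926 genes, where it was lowest for 27.2% of all genes. The Jinhua ovary was the highest for 480, where it was highest for 23% of all genes.

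**Figure D3:**
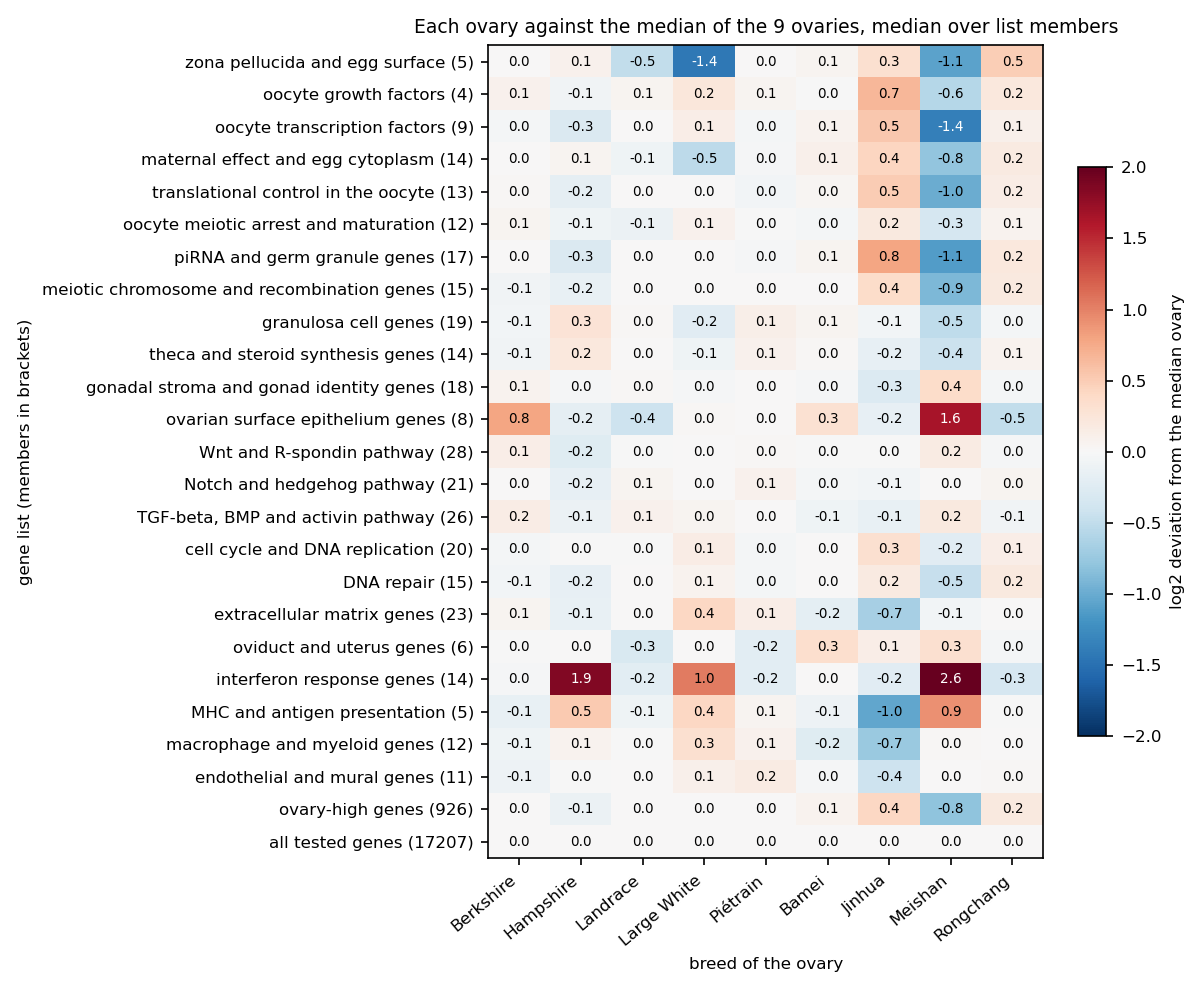
Median over the members of each gene list of the log2 deviation of each ovary from the median ovary, for members with an ovary median of 1 scaled FPKM or more. The Meishan column is blue for oocyte lists and red for surface epithelium and interferon genes, the Jinhua column is red for oocyte lists, and the Large White column is blue for the zona list.

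In the Meishan ovary the oocyte transcription factors lay 1.36 below the median ovary, the piRNA genes 1.12 below and the granulosa cell genes 0.51 below. It was lowest for 14 of 17 piRNA genes and for 11 of 19 granulosa genes. Beside these counts, it was lowest for 27.2% of all genes and for 642 of the 926 genes higher in ovary. Counts and deviations of lists among the ovaries, here and below, cover members with an ovary median of 1 scaled FPKM or more. Without the Meishan ovary the number of members higher than in each tissue changed in 1 of the 42 lists, meiotic arrest and maturation, where it was 3. Counts against the mean moved in more lists. Higher genes went from 5 to 4 for the zona list, from 17 to 16 for gonadal stroma and from 20 to 21 for Wnt. The TGF-beta, BMP and activin list went from 9 higher and 12 lower to 8 and 14. The granulosa list went from 17 and 2 to 17 and 3. TCL1B had 11.8 in the Meishan ovary, against 45.5 to 70.8 in the other ovaries. AMZ1, a metalloprotease, had 3.81 in the Meishan ovary, against a median of 21.9 over the 9. ELOVL2, which elongates polyunsaturated fatty acids, had 25.2, against a median of 71.1, and liver, the tissue with the highest values, had a median of 207.

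Of 8 tested genes of the ovarian surface epithelium, ALDH1A2, which makes retinoic acid, and BNC1 were higher than in each tissue, 6 were higher than the mean and 1 was lower. Without the Meishan ovary 6 were higher than the mean and 2 were lower. The 8 genes lay 1.65 above the median ovary in the Meishan ovary, which was highest for 7 of 8, where it was highest for 23.4% of all genes. KRT8, a keratin, reached 322 there, against 57.7 to 152 in the other ovaries and up to 301 in liver. EPCAM and CDH1, adhesion molecules of epithelia, reached 78.9 and 61. BNC1, a zinc finger protein, was instead lowest in the Meishan ovary at 2.35. FOXJ1, the switch for motile cilia, stood at 72.3 in the Meishan ovary, against 0.527 to 10.8 in the other ovaries and at most 26.8 in lung. CIMIP1, a ciliary microtubule protein, had 54.2, against 0 to 7.24 in the other ovaries, and TEKT1, a tektin of cilia, 9.32, against at most 3.37. PAX2, of kidney and oviduct, had 2.72 there, and OVGP1, the oviduct glycoprotein, was highest in the Bamei ovary at 7.74. PGC, ACSM3 and the small nucleolar RNAs SNORA61 and SNORA41 were also highest in the Meishan ovary, at 14.5, 17.6, 167 and 157, and both small RNAs were listed at 0 in the other 8. Of all genes tested, 61 were listed at 0 in an ovary and at 100 or more in another, and such values of 0 may be failed estimates. Over the list of oviduct and uterus genes, 5 of 9 were higher than the mean and 3 lower, and PGR alone was higher than in each tissue. Of its 6 members at a level to be compared among ovaries, the Meishan ovary was highest for 2 and lowest for 2. Their sum there was 88.8, against 10.7 to 27.3 in the other ovaries, and FOXJ1 made up 72.3 of it. Whether the epithelial, ciliary and oviduct genes have a part in the low oocyte values of this library was not tested.

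**Figure D4:**
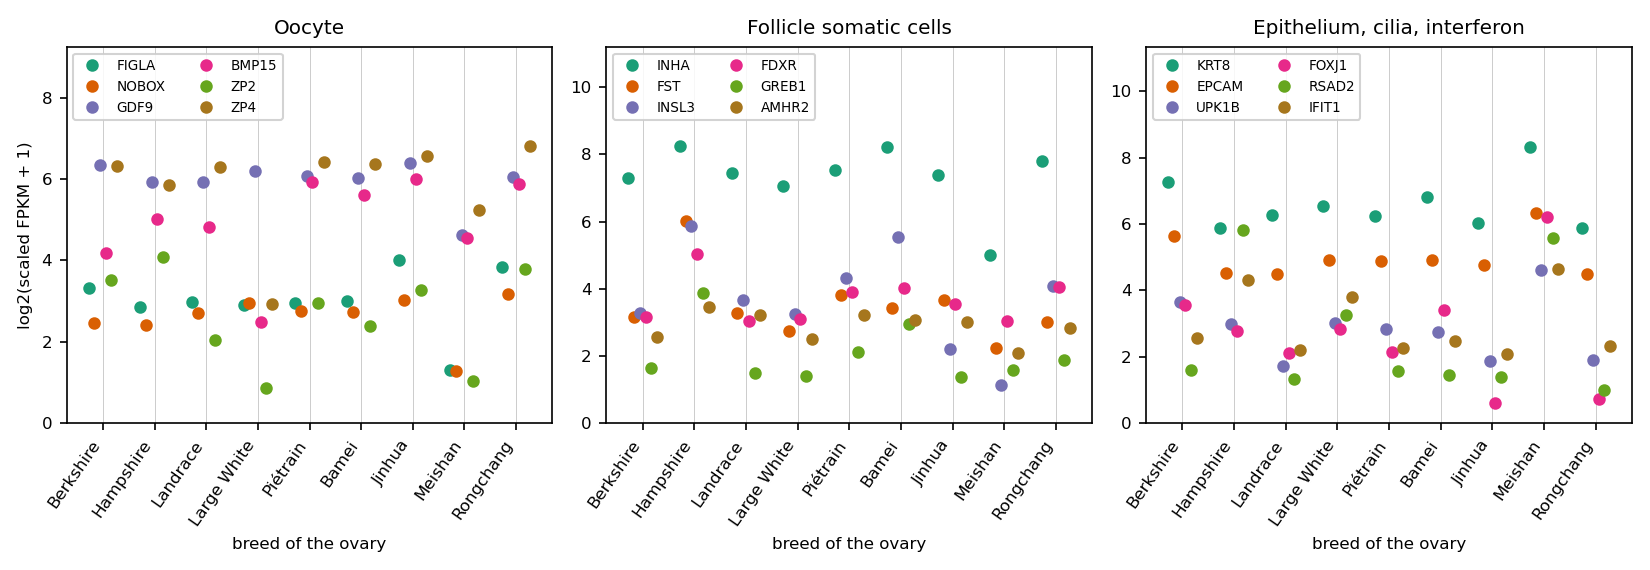
Level on the log2(scaled FPKM + 1) axis of 18 genes in each of the 9 ovaries, in panels for oocyte genes, somatic follicle genes, and epithelial, ciliary and interferon genes. The Large White ovary is lowest for ZP2, ZP4 and BMP15, the Hampshire ovary is highest for INSL3, FST and GREB1, and the Meishan ovary is highest for KRT8 and FOXJ1.

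The Large White ovary was the lowest of the 9 for some oocyte genes and not for others. ZP4 had 6.57 there, against 37.2 to 112 in the other ovaries, and BMP15 4.64, against 17.1 to 63.8. ZP2, ASTL and the oocyte linker histone H1-8 were lowest there too, at 0.802, 0.152 and 0.605. In the same library FIGLA had 6.45, NOBOX 6.74, GDF9 73.1 and DPPA5 727, the highest of the 9 for DPPA5. In this library the zona list lay 1.42 below the median ovary and the maternal effect list 0.52 below, while the oocyte transcription factors lay 0.14 above.

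The Hampshire ovary lay 0.27 above the median ovary for granulosa genes. FST, which binds activin, had 63.3 there, against 3.69 to 13 in the other ovaries. GREB1, an oestrogen-induced gene, had 13.7, against 1.60 to 6.79, and IHH, a hedgehog ligand of granulosa cells, 10.5, against at most 0.285. FDXR, which passes electrons to steroid enzymes, had 31.6, against 7.26 to 15.6. The Bamei ovary came next for INSL3 at 45.6 and INHA at 296, and had the highest CYP17A1 at 2.77 and CYP11A1 at 2.86. The same library had the lowest DPPA5 at 156, against 169 to 727 in the other ovaries.

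The Jinhua ovary was highest for 16 of 17 piRNA genes and for 10 of 13 genes of translational control, at 0.79 and 0.51 above the median ovary. Beside these counts, the Jinhua ovary was highest for 23% of all genes and for 480 of the 926 genes higher in ovary. It lay 0.67 below the median ovary for extracellular matrix genes and was lowest for 5 of 5 antigen presentation genes, where it was lowest for 16.5% of all genes. SYCN, a granule protein of the pancreas, was listed at 0 in all 74 other libraries and in the Hampshire, Large White and Bamei ovaries, and ran from 14.6 to 31.0 in the other 6. ALOX15B, a lipoxygenase, ran from 1.69 to 27.7 over the ovaries, LCN2, which binds iron carriers, from 28.2 to 357, and TTYH1, a membrane protein, from 1.37 to 24.5. HBB, the beta globin of red blood cells, was highest in the Berkshire ovary at 569.5, against 18.4 to 275 in the others.

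Interferon response genes, 15 in the list, were lower than the mean in 11 and higher in 1, with a median of -0.78. With FPKM as deposited they were 6 lower and 5 higher. Their sum was 1279.9 in the Meishan ovary, 1003 in the Hampshire ovary and 376.2 in the Large White ovary, against 145.2 to 196.9 in the other 6. The other tissues were high in the same 3 breeds, with medians over tissues of 1336 in Meishan, 1426 in Hampshire and 524.0 in Large White, against 146.1 to 417.1 in the other 6 breeds. MX1, an antiviral GTPase, had 408 in the Meishan ovary and 273 in the Hampshire ovary, against 12.4 to 49.6 in the others. RSAD2, the antiviral viperin, had 55.3 in the Hampshire ovary and 46.9 in the Meishan ovary, against 0.996 to 8.49 in the others. Since each breed has 1 ovary, breed and animal cannot be told apart.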

How the data were processed

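RNA was measured in 92 libraries from 10 pig breeds, 83 of 9 single tissues and 9 labelled as mixtures whose make-up is not given, from total RNA extracted with TRIzol and Illumina TruSeq libraries per the labels' protocols. The authors deposited FPKM values per gene, made with TopHat and Cufflinks 2.2.1 on Sscrofa10.2 per the submitters' processing notes, so counts and absolute depth are not known. The annotation release is not given in the sources used here.

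Symbols were found for 11804 of 25322 gene IDs. Genes with 1 FPKM or more in at least 3 of 83 single-tissue libraries were kept (17207), scaled by median ratios and tested as log2(value + 1) in limma 3.58.1 (R 4.3.3, statmod 1.5.0, trend and robust options) with tissue and breed as terms. Levels and list sums were computed in Python 3.11.15 with numpy 2.4.6, pandas 2.3.3 and scipy 1.17.1, and drawn with matplotlib 3.10.9. P-values were adjusted by Benjamini-Hochberg over all genes tested. On simulated data, 97% of 100 genes raised 4-fold and 98% of 100 raised 8-fold were recovered as higher than in each tissue. False calls numbered 0. Apart from the raise, each simulated gene had the same mean in all tissues, normal noise of equal spread and no breed effect. Only genes well above 0 were raised. Tissues differ in the measured data, so these rates, the 0 false calls among them, do not carry over.

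The breed block was kept because ovaries deviated with the other tissues of their own breed (median correlation 0.102 to 0.192). Deviations were taken from tissue means, which pulls the values for other breeds (-0.0332 to -0.00451) below 0, so those values are no separate reason. Alternatives covered scaling, pseudocount, filter, block, moderation, single ovaries, muscles and breeds. The members and the 42 gene lists were chosen with earlier results of these data known. Of 811 listed symbols, 585 matched. Named genes were the 24 highest and 12 lowest by distance to the nearest tissue, 6 a side by difference from the mean, the 8 most variable among ovaries, 6 a side by the gap of the Meishan ovary, all members of 10 ovary lists and up to 4 of other lists. Further names, among them HDAC1, NOTCH3, SMO, LUM, DCN, ATM, ATR, MX1, RSAD2, PAX2 and HBB, were chosen after their values were seen. Some genes of these lists are not reported here.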

Additional observations from a re-analysis of the deposited data

Results flagged for a closer look

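For 104 named genes the gap between the most extreme ovary and the nearest of the other 8 was divided by the range of all 9 on the log2 scale. A share above 0.493 marks a library far from the others, and chance gives about 1 in 20 among genes not chosen by their spread. There were 34 such cases, and the Meishan ovary was the extreme library in 31. Of the 104 genes, 19 were named for their spread among the ovaries or for the gap of the Meishan ovary, and they gave 11 of the 34 cases, so the rate of chance does not apply to these counts.

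The Meishan ovary was far below the others for genes of the oocyte and egg cytoplasm, with shares of 0.542 for PADI6, 0.721 for ZAR1, 0.627 for NLRP9, 0.730 for GDF9, 0.574 for FIGLA, 0.605 for NOBOX and 0.612 for LHX8. For stored RNA and cell cycle arrest the shares were 0.595 for CPEB1, 0.531 for EIF4ENIF1 and 0.559 for WEE2. For germ granule genes they were 0.527 for GTSF1, 0.551 for MAEL, 0.693 for PNLDC1, 0.500 for TDRD6, 0.560 for TDRKH, 0.539 for RNF17 and 0.550 for DND1. For meiotic genes they were 0.602 for PSMC3IP and 0.638 for BRDT. Beside these stood TCL1B with 0.748, ERFL with 0.608, INHA with 0.629, DPEP1 with 0.750, TMPRSS15 with 0.611, ELOVL2 with 0.659 and AMZ1 with 0.584.

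The same library was far above the others for SNORA61 and SNORA41, with a share of 1 for each, PGC with 0.940, ACSM3 with 0.697 and TNNC1 with 0.534. In the Large White ovary ZP4 was far below, with 0.599. MYL1 was far above in the Bamei ovary, with 0.603, and MYL3 in the Rongchang ovary, with 0.524.

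In the 9 mixtures, which entered no comparison, 2 of the 24 genes furthest above every tissue exceeded all 74 libraries of the other tissues. CHGA did so in 7 of 9 mixtures, with a median of 5.89 and a highest value of 8.91 scaled FPKM against at most 4.98 in the other tissues. MAEL did so in 1, with 0.140 against 0.129.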

How the results depend on the processing

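The 926 and 73 genes beyond every tissue became 1763 and 12 with FPKM as deposited, which kept all 926. They became 927 and 130 with quantile normalization, 1371 and 179 with a pseudocount of 0.1, and 301 and 2 at a log2 difference over 2. Leaving out each ovary in turn gave 889 to 992 and 67 to 79, the upper ends without the Meishan ovary. With no replicate block the counts were 925 and 70, and all 175 single-gene results kept their call and direction. Without all Meishan libraries, a choice made after seeing the data, they were 995 and 79. Against the mean, deposited FPKM gave 11395 higher and 3369 lower. Pair by pair, ovary was then higher and lower in 6847 and 1045 genes against heart, 7913 and 1357 against liver, 8786 and 947 against psoas major, 8697 and 936 against longissimus dorsi and 5107 and 1176 against subcutaneous adipose, and higher in 4318 against kidney. With a pseudocount of 0.1 ovary was higher in 4908 genes against heart, 5317 against liver, 5141 against spleen, 4047 against lung, 4069 against kidney, 5394 against psoas major, 5223 against longissimus dorsi and 4301 against subcutaneous adipose. The lowest median correlation of an ovary with the others, 0.911, was 0.940 with no filter and 0.949 without the Meishan ovary. Directions turned with deposited FPKM for CNOT7 (0.57), TUT4 (0.27), DDX6 (0.74), SGO2 (0.37), PRKACA (0.044), REC8 (0.39), MLH3 (0.34), CYB5A (0.23), CYP21A2 (0.41) and STARD3 (0.36). With quantile normalization they turned for CNOT7 (0.0016), DDX6 (0.20), FBXO5 (-0.37) and SRD5A1 (-0.29). The causes were not tested. A comparison of promoter motifs was not run. Depth in reads is unknown, so no counting error is given, and a value of 0 need not mean absence.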

Other observations

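Complement genes that the liver secretes were mixed in ovary, with 6 of 17 tested genes of complement and coagulation higher than the mean of the other tissues and 11 lower. C7, of the membrane attack complex, ran from 56.6 to 245 in the ovaries, against 0.378 to 233 elsewhere, and its log2 difference was 2.96. CFI, a protease that limits complement, had an ovary median of 58.5 and a log2 difference of 2.26. F2, prothrombin, had an ovary median of 14.2, against a liver median of 1609.9. Of 10 imprinted genes, which are read from the copy of a single parent, 6 were higher than the mean and 3 lower. SGCE and NDN, read from the paternal copy, were higher by 1.74 and 1.38, and no other library reached the lowest ovary for NDN (21.7 in the ovaries against at most 20.5). IGF2R was below all other libraries, with at most 4.57 in the ovaries against at least 5.67.

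Chromatin regulators were higher than the mean in 11 of 19 and lower in 5, which became 17 and 0 with FPKM as deposited. CBX2, a Polycomb protein needed for gonad development, ran from 3.38 to 5.83 in the ovaries, against at most 2.79, and KDM1A, a histone demethylase, differed by 0.98. Of 12 genes of fatty acid and triglyceride storage 6 were lower and 1 higher, which became 5 and 6 with FPKM as deposited, where the list's median turned to 0.35 from -0.31. After scaling the median stood 2.74 below subcutaneous adipose but 0.31 above heart and 0.41 above kidney. CIDEC, of fat droplets, had at most 0.142 in the ovaries against up to 597 in subcutaneous adipose. Of 9 antigen presentation genes 8 were lower and none was higher, which became 6 lower and 1 higher with FPKM as deposited. After scaling the median stood 2.39 below spleen, 1.24 below lung, and 0.35 to 0.57 below liver, heart and subcutaneous adipose. It stood 0.024 below kidney, 0.039 below longissimus dorsi and 0.019 above psoas major. Ribosomal proteins were higher in 5 of 10 and lower in 3, and all 10 were higher with FPKM as deposited and with quantile normalization.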
